A study of Mus musculus with 10 samples.

Results

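MHC class II antigen presentation was followed through 9 genes, namely *Cd74*, *H2-Aa*, *H2-Ab1*, *H2-Eb1*, *H2-DMa*, *H2-DMb1*, *H2-DMb2*, *H2-Oa*, and *Ciita*, out of 55426 genes in the table. They were chosen by name after earlier results of these aortas were known, among them higher TPM in the knockout group, so the comparison of groups describes these genes and is not a test of them. RNA-Seq was performed on 3 control thoracic aortas, from mice with floxed alleles (*Prdm16*f/f) and no Cre, and on 3 *Prdm16*SMKO thoracic aortas, from mice with the same alleles and SMMHC-CreERT2. This Cre is driven by the promoter of smooth muscle myosin heavy chain (*Myh11*) and activated by tamoxifen, so that *Prdm16* is deleted in vascular smooth muscle cells (VSMCs) while other cells of the vessel wall keep it. All mice were on the C57BL/6J background, the transgene lies on the Y chromosome, and the age at which these aortas were taken is not given in the sources used here. Binding was measured by ChIP-Seq in primary vascular fibroblasts from wild-type mice, into which a lentivirus had brought either Flag-tagged PRDM16 or an empty vector (48 hours of infection, then 1 week of puromycin at 2 μg/mL), with 1 anti-Flag library per condition.

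MHC class II molecules are surface heterodimers of an α and a β chain that present peptides from the endosomal pathway to CD4+ T cells. Dendritic cells, macrophages, and B cells express them constitutively, and interferon gamma can induce them in other cells, including those of the vessel wall, through the coactivator CIITA. The invariant chain CD74 fills the groove during transport, the DM heterodimer exchanges its remnant for other peptides, and the DO heterodimer inhibits DM. CIITA binds no DNA itself and is recruited by RFX, NF-Y, and CREB factors to the X and Y boxes that class II promoters share.

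The values are TPM, a transcript abundance that is divided by length and scaled to the same total in every library, so levels of different genes can be compared. The read depth behind a TPM value is unknown here. Fold changes were estimated with limma on log2(TPM + 0.1) over the 15668 genes whose TPM averaged 0.5 or more, and a gene is referred to as called when its Benjamini-Hochberg adjusted *P* value over all these genes was under 0.05. Of all genes tested, 168 (1.07%) were called, 61 (0.389%) higher and 107 (0.683%) lower in *Prdm16*SMKO aortas, and the median log2 fold change was −0.12. With each aorta rescaled by its median ratio, the higher genes made up 47.7% of the called genes instead of 36.3%, and the median was 0.00024. *Prdm16* itself had TPM of 56.1, 47.6, and 40.3 in control aortas and 23.3, 33.3, and 23.4 in *Prdm16*SMKO aortas, without overlap (log2 fold change −0.85, SE 0.18, adjusted *P* = 0.072 by limma). The labelled tissue was checked with 6 smooth muscle markers, whose summed TPM ranged from 20405 to 23692 in control and from 13570 to 17531 in *Prdm16*SMKO aortas. The 3 aortas of each group are the replicates, and no batch is given.

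The genes for the antigen-presenting chains and for the invariant chain were the most abundant members, and their lowest *Prdm16*SMKO value lay above their highest control value. *Cd74* (ENSMUSG00000024610; GRCm38 chromosome 18, 60803848 to 60812652) had the highest level, at 18.2, 19.1, and 15.8 TPM in the control aortas and 55.3, 24.8, and 33.1 TPM in the *Prdm16*SMKO aortas. *Prdm16*SMKO aorta 1 stood highest and the groups did not overlap. The mean was 17.7 ± 1.72 TPM in control and 37.7 ± 15.7 TPM in *Prdm16*SMKO aortas (SD, n = 3 each), a log2 fold change of 1.01 (SE 0.26).

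*H2-Ab1* (ENSMUSG00000073421; GRCm38 chromosome 17, 34257689 to 34269419) encodes the β chain of I-A, the class II molecule that C57BL/6J mice display. Its TPM were 7.18, 9.53, and 5.75 in control and 22.6, 11.7, and 18.9 in *Prdm16*SMKO aortas. The lowest knockout value, in aorta 2, lay above the highest control value, also in aorta 2, and the log2 fold change was 1.21 (SE 0.27).

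*H2-Aa* (ENSMUSG00000036594; GRCm38 chromosome 17, 34282744 to 34287823, reverse strand) encodes the α chain that pairs with it. Its TPM were 6.90, 7.14, and 5.34 in control and 21.1, 8.67, and 15.1 in *Prdm16*SMKO aortas. The order of the knockout aortas was the same as for *H2-Ab1*, with aorta 1 highest and aorta 2 lowest, and the log2 fold change was 1.12 (SE 0.30). The ratio of *H2-Aa* to *H2-Ab1* TPM overlapped between the groups, at 0.749 to 0.961 in control and 0.741 to 0.930 in *Prdm16*SMKO aortas. The ratio of *Cd74* to *H2-Ab1* also overlapped, at 2.00 to 2.74 in control and 1.76 to 2.44 in *Prdm16*SMKO aortas.

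*H2-Eb1* (ENSMUSG00000060586; GRCm38 chromosome 17, 34305867 to 34316674) encodes the β chain of I-E. Its TPM were 8.33, 8.65, and 6.29 in control and 23.5, 14.1, and 15.5 in *Prdm16*SMKO aortas, with a log2 fold change of 1.16 (SE 0.22). Every knockout value was above every control value, and the gap between the groups, from 8.65 to 14.1 TPM, was wider than for *H2-Ab1* or *H2-Aa*. The partner of this chain is encoded by *H2-Ea*, which carries a promoter deletion in C57BL/6 mice, and the table lists *H2-Ea-ps* at 0 TPM in all 6 aortas.

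The genes of the DM and DO heterodimers, which edit the peptides, did not share this separation. *H2-DMa* (ENSMUSG00000037649; GRCm38 chromosome 17, 34119541 to 34139101), the DM α chain, had TPM of 3.67, 2.57, and 2.47 in control and 7.5, 3.37, and 2.77 in *Prdm16*SMKO aortas. The groups overlapped, and the log2 fold change of 0.52 (SE 0.36) became 0.094 without *Prdm16*SMKO aorta 1. *H2-DMb1* (ENSMUSG00000079547; GRCm38 chromosome 17, 34153072 to 34160230), the DM β chain, had TPM of 5.50, 3.92, and 3.89 in control and 6.32, 4.56, and 3.28 in *Prdm16*SMKO aortas. Both the highest and the lowest of these 6 values were in the knockout group, and the log2 fold change of 0.057 (SE 0.27) turned negative without *Prdm16*SMKO aorta 1 (−0.17), control aorta 2 (−0.021), or control aorta 3 (−0.026). The ratio of *H2-DMa* to *H2-DMb1* TPM was 0.635 to 0.667 in control aortas and 0.739 to 1.19 in *Prdm16*SMKO aortas.

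*H2-DMb2*, *H2-Oa*, and *Ciita* had a mean under 0.5 TPM and were not tested. *H2-DMb2* (ENSMUSG00000037548; GRCm38 chromosome 17, 34143307 to 34151555), a neighbouring copy of the DM β chain gene, had 0.56, 0.24, and 0.17 TPM in control and 0.09, 0.21, and 0.23 TPM in *Prdm16*SMKO aortas, which overlapped. Its coding sequence matches that of *H2-DMb1* at 95.9% of 783 positions, and reads shared by such copies can be assigned to either, so the split between both genes is uncertain. *H2-Oa* (ENSMUSG00000024334; GRCm38 chromosome 17, 34092340 to 34095234), the DO α chain typical of B cells and the thymus, was listed at 0 in 5 of 6 aortas and at 0.11 TPM in control aorta 3. *Ciita* (ENSMUSG00000022504; GRCm38 chromosome 16, 10480059 to 10528418), the transactivator, had 0.45, 0.48, and 0.20 TPM in control and 0.66, 0.47, and 0.42 TPM in *Prdm16*SMKO aortas. The lower knockout values of *Ciita* lay among the control values, and levels this low, with the depth unknown, cannot show whether a difference of the size seen for *H2-Eb1* was present.

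**Figure D1:**
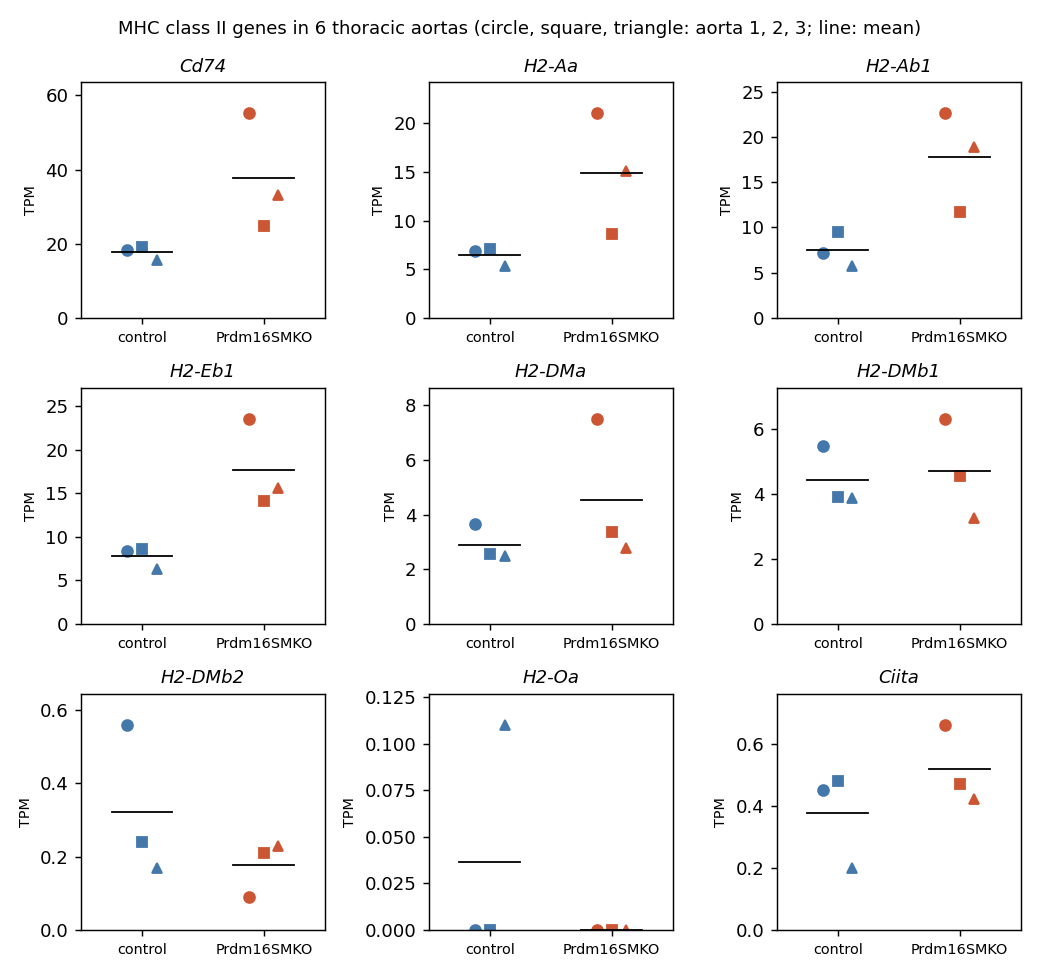
TPM of the 9 MHC class II genes in each control (blue) and *Prdm16*SMKO (red) aorta, with circles, squares, and triangles for aortas 1, 2, and 3 and a line at the group mean. *Cd74*, *H2-Aa*, *H2-Ab1*, and *H2-Eb1* do not overlap between the groups, and 7 of the 9 genes have their highest value in *Prdm16*SMKO aorta 1.

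In number, 4 of the 6 tested members had groups that did not overlap, all higher in *Prdm16*SMKO aortas, whereas 19.0% of all genes tested had groups without overlap, 4.08% with higher and 14.9% with lower knockout values. The median log2 fold change of the 6 members was 1.07 against −0.12 over all genes tested. With the adjustment over all genes, 1 of the 6, *H2-Eb1*, was called, where 1.07% of all genes were called and 0.389% were called higher. Nothing is read from these counts, since the members were picked with this contrast known. *H2-Eb1* was called in 4 of 14 alternative settings and *H2-Aa* and *H2-Ab1* in 1 each, the one without *Prdm16*SMKO aorta 2. The paper, by its own test, lists *H2-Ab1* as upregulated, among differentially expressed genes with a PRDM16 promoter peak. All 6 tested members were highest in aorta 1 among the knockouts and lowest in aorta 3 among the controls. Without *Prdm16*SMKO aorta 1, the log2 fold changes of *Cd74*, *H2-Aa*, *H2-Ab1*, and *H2-Eb1* were 0.70, 0.83, 1.01, and 0.94. The sum over all 9 genes was 50.8, 51.6, and 40.0 TPM in control and 137, 67.9, and 89.4 TPM in *Prdm16*SMKO aortas.

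The promoters of the members were searched for letters of the X and Y boxes. RefSeq promoter windows of GRCm38.p6, from 250 bases before to 50 bases after the TSS, matched 6 of the 9 members, with none for *Cd74*, *H2-Ab1*, and *Ciita*. The patterns were the X box core, GNNAC directly followed by NNNTG, and the Y box CCAAT, both on either strand, and an X box core followed by ATTGG in the same orientation with 15 to 30 bases between them. The last pattern contains both single ones, and the letters were chosen from general knowledge of these boxes. The windows of *H2-Eb1* and *H2-Aa*, which were higher in the knockout group, and of *H2-DMb1* and its copy *H2-DMb2*, which were not, are given 5′ to 3′ in the direction of each gene with X box cores and Y boxes in capitals. They lie at chr17:34305617-34305916 (forward strand), chr17:34287774-34288073 (reverse strand), chr17:34152941-34153240 (forward strand), and chr17:34144999-34145298 (forward strand).
H2-Eb1: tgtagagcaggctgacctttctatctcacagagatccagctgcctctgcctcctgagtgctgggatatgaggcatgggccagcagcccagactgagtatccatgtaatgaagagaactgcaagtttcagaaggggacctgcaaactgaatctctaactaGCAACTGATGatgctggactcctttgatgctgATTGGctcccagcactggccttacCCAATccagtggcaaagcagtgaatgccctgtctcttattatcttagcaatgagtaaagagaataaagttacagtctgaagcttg
H2-Aa: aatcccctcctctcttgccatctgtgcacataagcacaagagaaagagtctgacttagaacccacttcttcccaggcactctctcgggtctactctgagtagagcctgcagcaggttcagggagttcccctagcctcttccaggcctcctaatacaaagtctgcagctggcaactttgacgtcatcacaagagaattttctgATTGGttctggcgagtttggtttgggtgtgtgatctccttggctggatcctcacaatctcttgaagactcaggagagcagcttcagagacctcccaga
H2-DMb1: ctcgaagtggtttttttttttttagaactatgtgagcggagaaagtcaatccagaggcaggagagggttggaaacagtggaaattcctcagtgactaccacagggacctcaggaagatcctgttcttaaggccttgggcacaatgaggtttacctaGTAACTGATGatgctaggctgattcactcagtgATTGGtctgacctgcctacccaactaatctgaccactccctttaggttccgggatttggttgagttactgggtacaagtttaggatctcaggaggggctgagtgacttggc
H2-DMb2: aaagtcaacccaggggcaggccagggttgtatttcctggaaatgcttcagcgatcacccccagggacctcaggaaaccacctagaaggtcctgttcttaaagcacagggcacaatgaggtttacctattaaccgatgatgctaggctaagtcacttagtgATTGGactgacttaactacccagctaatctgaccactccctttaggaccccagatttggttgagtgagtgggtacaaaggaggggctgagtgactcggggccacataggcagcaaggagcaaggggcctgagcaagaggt

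The Y box was present in all 6 members with a window, against 37.4% of 32851 promoter windows outside chromosome 18. For *H2-DMa* it was found in the window of the TSS at 34125518 and not in that of the TSS at 34122832. The X box core occurred in 4 of the 6 members and in 38.7% of all windows, a share that shows how permissive these letters are. The pair of X box core and ATTGG was found in 2 members, *H2-Eb1* and *H2-DMb1*, and in 0.688% of all windows. In *H2-Eb1* the pair began at −91 from the TSS with 22 bases between the boxes, and in *H2-DMb1* at −94 with 23 bases between them. The related genes *H2-Ob* and *H2-Eb2*, both under 0.5 TPM in every aorta, also held the pair, with 20 and 22 bases between the boxes. The pair thus occurred both in *H2-Eb1*, which was higher in *Prdm16*SMKO aortas, and in *H2-DMb1*, which was not. With no window for *Cd74* and *H2-Ab1*, the windows are too few to say whether the pair goes with higher values. Its absence from the window of *H2-Aa* says only that these letters do not occur there. The gamma-activated site TTCNNNGAA occurred in 1 member window, that of *H2-DMb2*, and in 8.30% of all windows.

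The other genes of the pathway were taken from a list of 38 symbols, of which 33 were matched in the table and 25 were tested. None of the 25 was called by limma, 4 had an unadjusted *P* value under 0.05, as did 12.7% of all genes tested, and with quantile normalization 1 gene, *Ctsb*, was called as lower. Their median log2 fold change was −0.124, against −0.116 over all genes tested. The groups did not overlap for 1 gene with higher and 5 genes with lower values in *Prdm16*SMKO aortas, where 4.08% and 14.9% of all genes tested did not overlap in these directions.

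Of the 7 genes for the DNA-binding factors that recruit CIITA (*Rfx5*, *Rfxap*, *Rfxank*, *Nfya*, *Nfyb*, *Nfyc*, and *Creb1*), *Rfxap*, a subunit of the RFX complex, had TPM of 20.6, 21.2, and 20.6 in control and 30.8, 35.7, and 22.6 in *Prdm16*SMKO aortas. All 3 knockout values were above the control values, with a log2 fold change of 0.49 (SE 0.17, adjusted *P* = 0.27 by limma). The other RFX, NF-Y, and CREB genes had log2 fold changes between −0.31 for *Rfxank* and −0.068 for *Rfx5*, and their groups overlapped.

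On the interferon gamma route to *Ciita*, *Ifng*, the gene for the cytokine, was listed at 0 in all 6 aortas. The receptor genes *Ifngr1* and *Ifngr2*, the kinase genes *Jak1* and *Jak2*, the transcription factor gene *Irf1*, and the feedback inhibitor gene *Socs1* were expressed in all aortas, with log2 fold changes from −0.20 for *Jak2* to 0.093 for *Irf1* and overlapping groups. *Irf1* had TPM of 10.2, 9.82, and 9.82 in control and 11.2, 8.88, and 12.02 in *Prdm16*SMKO aortas. The lowest of these 6 values was in the knockout group, unlike those of *H2-Aa*, *H2-Ab1*, and *H2-Eb1*.

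Among the endosomal processing genes, *Ifi30*, which encodes the thiol reductase GILT, had TPM of 21.5, 19.3, and 17.9 in control and 11.8, 15.3, and 14.2 in *Prdm16*SMKO aortas (log2 fold change −0.51, SE 0.15, adjusted *P* = 0.19 by limma). The protease gene *Ctsb* had TPM of 240, 223, and 224 in control and 174, 177, and 154 in *Prdm16*SMKO aortas (log2 fold change −0.44, SE 0.10, adjusted *P* = 0.098 by limma). In both genes every knockout value was below every control value, the opposite order to *Cd74*. *Ctss*, which encodes the protease that trims the invariant chain, had TPM of 3.83, 2.45, and 4.68 in control and 5.52, 3.18, and 5.64 in *Prdm16*SMKO aortas, which overlapped (log2 fold change 0.38, SE 0.30, adjusted *P* = 0.64 by limma). *Cd9* and *Cd81*, tetraspanins that associate with class II molecules, had log2 fold changes of −0.40 and −0.21 (adjusted *P* = 0.19 and 0.47 by limma).

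**Figure D2:**
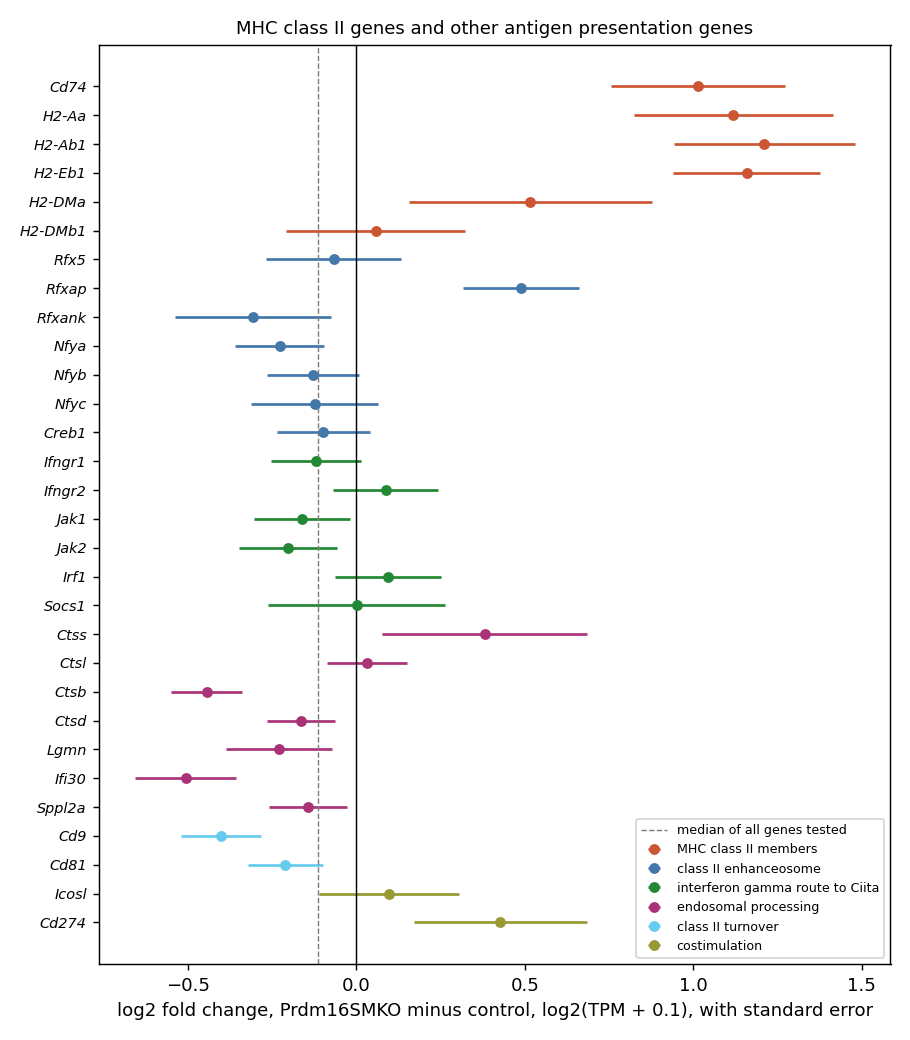
Log2 fold change with its standard error (*Prdm16*SMKO minus control, log2(TPM + 0.1)) for the 6 tested MHC class II genes and 24 of the other antigen presentation genes, coloured by list, with a dashed line at the median of all genes tested. *Cd74*, *H2-Aa*, *H2-Ab1*, and *H2-Eb1* lie between 1.01 and 1.21, and the genes drawn from the other lists lie between −0.51 and 0.49.

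Whole aortas were sequenced, so a higher TPM in more class II-positive cells and a higher TPM per cell cannot be told apart. Marker lists of cells that can carry class II were therefore read beside the members, and none of their 28 tested genes was called by limma, with 4 at an unadjusted *P* value under 0.05 (12.7% over all genes tested). The 14 macrophage markers (12 tested), among them *C1qa*, *Csf1r*, *Lyz2*, and *Mrc1*, summed to 116 to 158 TPM in control and 101 to 150 TPM in *Prdm16*SMKO aortas. Of the 12, 6 had positive and 6 negative log2 fold changes, with a median of −0.030, and none separated the groups. *Mertk* had the highest mean of the 14 over the 6 aortas, 30.2 TPM, against 1.28 TPM for *Adgre1*. Which cells the *Mertk* transcripts came from was not tested. The class II sum divided by the macrophage sum was 0.316 to 0.446 in control and 0.675 to 0.915 in *Prdm16*SMKO aortas, without overlap. The members were chosen with their higher knockout values known, so this separation follows from that choice and nothing is read from it. *Prdm16*SMKO aorta 2 had the lowest macrophage sum of the 6 aortas, 101 TPM, and a class II sum above all controls.

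The 8 pan-leukocyte markers summed to 15.5 to 21.2 TPM in control and 18.8 to 24.9 TPM in *Prdm16*SMKO aortas, which overlapped. The class II sum divided by this sum was 2.39 to 2.89 in control and 3.61 to 5.51 in *Prdm16*SMKO aortas, and for the same reason nothing is read from it. The signs of the pan-leukocyte markers were mixed. Of the 8, 5 had positive and 3 negative log2 fold changes, with a median of 0.17, from −0.19 (SE 0.40) for *Ptprc*, which encodes CD45, to 0.90 (SE 0.36) for *Coro1a*, which encodes the actin-binding protein coronin 1A. *Coro1a* had an unadjusted *P* value of 0.035 and an adjusted *P* value of 0.35 by limma.

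Of the 12 dendritic cell markers, 7 had a mean under 0.5 TPM, among them *Flt3*, *Xcr1*, *Itgax*, and *Clec9a*. Their sum was 11.7 to 13.6 TPM in control and 12 to 16.8 TPM in *Prdm16*SMKO aortas, and *Zbtb46*, which endothelial cells also express, made up much of it. Of the 8 B cell markers, 7 had a mean under 0.5 TPM, including *Ms4a1*, *Cd79a*, and *Pax5*. The remaining one, *Ighm*, the immunoglobulin μ heavy chain, had 8.49, 6.36, and 4.20 TPM in control and 3.03, 2.50, and 3.17 TPM in *Prdm16*SMKO aortas. Its groups did not overlap and ran opposite to the class II genes (log2 fold change −1.05, SE 0.27, adjusted *P* = 0.12 by limma).

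The 2 tested T cell markers were also higher in *Prdm16*SMKO aortas without overlap, although mouse T cells do not themselves express class II. They were the only 2 of the 28 tested leukocyte markers that did so, against 4.08% of all genes tested, and nothing is read from this count. *Trac*, the constant region of the T cell receptor α chain, had 0.12, 0.14, and 0 TPM in control and 1.61, 1.54, and 1.22 TPM in *Prdm16*SMKO aortas, with an adjusted *P* value of 0.062 by limma. Its mean was 0.0867 TPM in control and 1.46 TPM in *Prdm16*SMKO aortas, so *Trac* passed the minimum of 0.5 TPM only through the knockout group. It was called after quantile normalization, after median ratio scaling, with a pseudocount of 1, and without a mean-variance trend. *Lck*, a kinase of T cell receptor signaling, had 0.27, 0.87, and 0.80 TPM in control and 2.31, 2.3, and 2.90 TPM in *Prdm16*SMKO aortas (log2 fold change 1.92, SE 0.43, adjusted *P* = 0.085 by limma). The 8 T cell markers summed to 1.23 to 2.97 TPM in control and 4.58 to 8.42 TPM in *Prdm16*SMKO aortas, and 6 of the 8, including *Cd3e*, *Cd3d*, *Cd4*, and *Cd8a*, had a mean under 0.5 TPM. Each of these 6 overlapped between the groups. The knockout means of *Cd3e* and *Cd3g* were lower than the control means (0.277 against 0.383 TPM and 0.16 against 0.31 TPM), and those of *Cd3d*, *Cd4*, *Cd8a*, and *Cd2* were higher. The part of T cells, or of any other cell type, in the class II values was not tested.

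**Figure D3:**
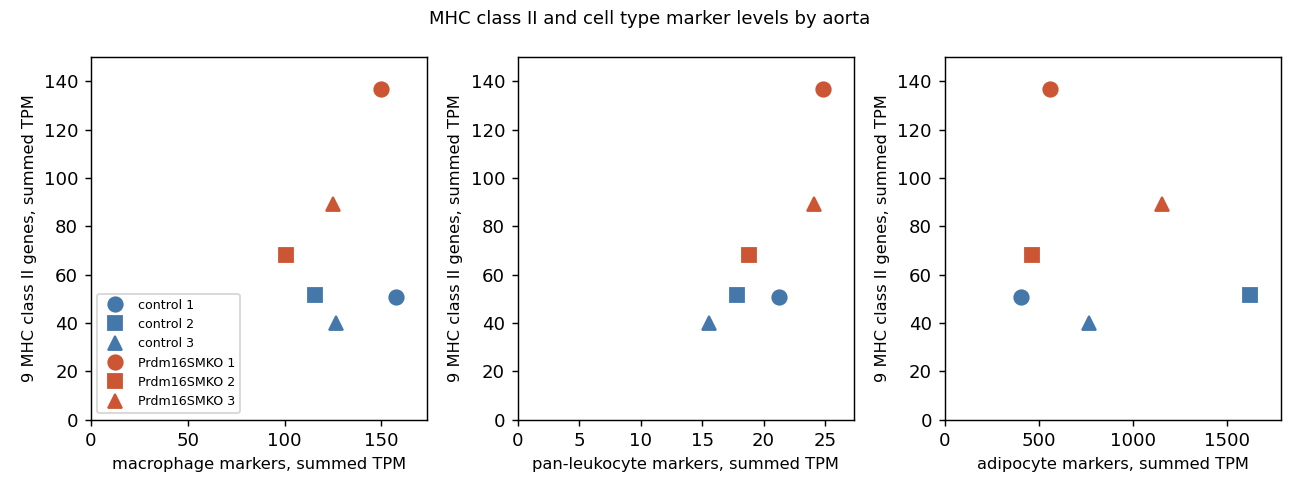
Summed TPM of the 9 MHC class II genes (vertical axis) against the summed TPM of macrophage, pan-leukocyte, and adipocyte markers (horizontal axes) in each control (blue) and *Prdm16*SMKO (red) aorta. The knockout aortas lie higher, at 67.9 to 137 TPM against 40.0 to 51.6 TPM, while the marker sums of the groups overlap on all 3 horizontal axes. Not drawn are the sums of T cell markers (1.23 to 2.97 TPM in control, 4.58 to 8.42 TPM in *Prdm16*SMKO aortas) and B cell markers (6.29 to 9.77 and 3.62 to 4.22 TPM), which do not overlap.

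**Figure D4:**
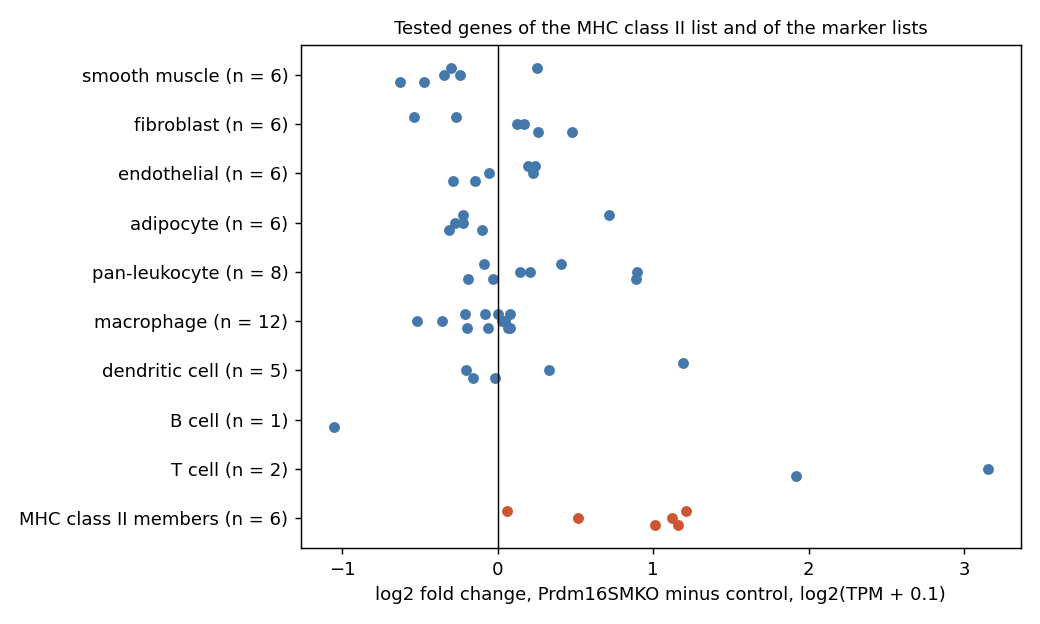
Log2 fold change (*Prdm16*SMKO minus control, log2(TPM + 0.1)) of each tested gene of the marker lists and of the MHC class II list, with n the number of tested genes. The 12 macrophage markers are spread around a median of −0.030, and the 6 class II genes around 1.07.

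Other cells of the wall also varied between aortas. The 6 adipocyte markers summed to 405 to 1622 TPM in control and 465 to 1154 TPM in *Prdm16*SMKO aortas, which overlapped. Control aorta 2, with the highest adipocyte sum, and control aorta 1, with the lowest, had class II sums of 51.6 and 50.8 TPM. Endothelial markers summed to 91.7 to 112 TPM in control and 62.5 to 138 TPM in *Prdm16*SMKO aortas, and fibroblast markers to 926 to 1171 and 789 to 1127 TPM. *Prdm16*SMKO aorta 1, the highest for class II, was also the highest of the 6 for the endothelial sum, and the part of this in its values was not tested.

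The genes whose profile over the 6 aortas was nearest to that of the class II genes were found by the root mean square difference of centred log2 values from the median profile of the 6 tested members. The members lay at 0.044 (*Cd74*) to 0.57 (*H2-DMb1*) on this log2 scale, and the 10 nearest other genes at 0.17 to 0.25. Among them were *Oas2* and *Oasl2*, which encode 2′-5′-oligoadenylate synthetase family proteins induced by interferon, the MHC class I gene *H2-Q4*, the chemokine gene *Ccl11* (eotaxin), *Fst* (follistatin), the prostaglandin transporter gene *Slco2a1*, *Myzap*, *Tril*, and *Gm49767*. *H2-Q4* had TPM of 10.4, 13.1, and 11.8 in control and 27.8, 15.95, and 18.7 in *Prdm16*SMKO aortas. *Oasl2* had TPM of 2.7, 2.44, and 1.82 in control and 4.81, 3.45, and 3.48 in *Prdm16*SMKO aortas. All 10 had their highest value in *Prdm16*SMKO aorta 1, and 8 did not overlap between the groups, both of which the search favours, so no test is given for them.

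PRDM16 peaks were then looked for around the members. The list of the PRDM16 anti-Flag library held 11271 peaks and that of the vector library 67, both called by the authors, and the fold enrichment is the authors' value over the local background. With a promoter peak defined as a peak centre within 2 kb of a curated RefSeq TSS, 2 of the 9 members, *H2-DMa* and *H2-Ab1*, had one. They are 2 of the 6 tested members, and 43.3% of all tested genes with such a TSS had one. The same genes were the only members with a peak in the gene or within 10 kb of it, where 51.4% of tested genes had one, and nothing about the members is read from these counts. The vector list held no peak at either distance for any member. Each condition had 1 library, so these peaks have no replicate, and they were called in fibroblasts that overexpress PRDM16 and not in aorta.

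The peak in *H2-Ab1* spanned 551 bp of GRCm38 chromosome 17, from 34264472 to 34265022, and its summit lay outside the exons of the curated transcript. Whether other parts of the peak overlap an exon was not examined. Its centre lay 1520 bp downstream of the TSS at 34263227, so it was not counted with a window of 1 kb. Its fold enrichment was 5.98, with 66.4% of all listed peaks below it, and −log10 q was 7.16. The reference sequence around its summit, with 30 bases on either side and the summit base in capitals, is given for chr17:34264633-34264693 (forward strand).
H2-Ab1 peak: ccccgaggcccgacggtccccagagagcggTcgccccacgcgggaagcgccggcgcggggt

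*H2-DMa* starts head to head with *Brd2*, which encodes a bromodomain protein and is transcribed in the opposite direction. One peak, from 34122024 to 34122304, had its centre at position −668 from the *H2-DMa* TSS at 34122832 and a fold enrichment of 6.33. Another, from 34121427 to 34121777, was centred at −1230 with a fold enrichment of 5.10. For both, the nearest curated TSS belonged to *Brd2*, at 417 bp and 145 bp from the peak centre, and they lie inside *Brd2*, so they cannot be assigned to *H2-DMa* alone. *Brd2* had TPM of 112, 100, and 89.9 in control and 101, 114, and 83.2 in *Prdm16*SMKO aortas (log2 fold change −0.022, SE 0.14, adjusted *P* = 0.97 by limma). Over their whole length these peaks hold 1 X box core, in the peak centred at −1230, and no Y box. This core lies outside the summit sequence given for that peak. The summit sequences of both peaks are drawn in the same way from chr17:34122118-34122178 and chr17:34121554-34121614 (forward strand).
Peak centred at −668: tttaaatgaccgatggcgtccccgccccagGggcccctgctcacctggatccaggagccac
Peak centred at −1230: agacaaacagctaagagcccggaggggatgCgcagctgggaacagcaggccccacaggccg

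The members with the largest differences between the groups, other than *H2-Ab1*, had no peak close by. The nearest peak lay 17.7 kb from *H2-Aa* and 40.8 kb from *H2-Eb1*, and for both it was the peak inside *H2-Ab1*. It was 55.5 kb from *Cd74*, 30.8 kb from *H2-DMb1*, 21.0 kb from *H2-DMb2*, and 23.1 kb from *H2-Oa*. For *Ciita* the nearest peak was 14.3 kb beyond the end of the gene, from 10542670 to 10543035 on chromosome 16, centred 202 bp from the TSS of *Dexi*. Without read counts, the weakest binding that the peak calls could have picked up here is unknown.

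**Figure D5:**
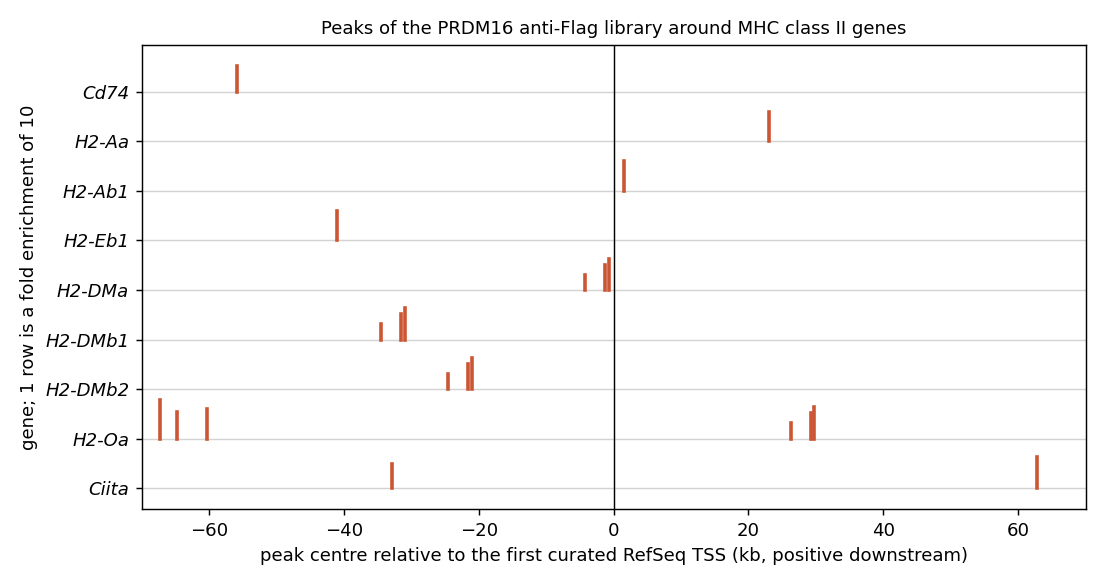
Peaks of the PRDM16 anti-Flag library within 70 kb of the MHC class II genes, at the distance of the peak centre from the first curated RefSeq TSS (kb, positive downstream in the direction of the gene), with bar height proportional to fold enrichment and 1 row equal to a fold enrichment of 10. Bars within 2 kb of the TSS occur for *H2-DMa* and *H2-Ab1*, and neighbouring genes of chromosome 17 share the same peaks.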

How the data were processed

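RNA-Seq and ChIP-Seq samples were grouped by their titles, and the columns of the RNA-Seq table were assigned by genotype and replicate number. For RNA-Seq the authors deposited TPM by Ensembl gene for each aorta. The submitters' processing notes list STAR 2.7.8a, RSEM 1.3.3, cutadapt 2.3, and GRCm38, and the annotation release is not given in the sources used here. TPM hold no counts, so no counting interval was computed. For ChIP-Seq the authors used bowtie2 on GRCm38, then MACS2 peak calling (q of 0.01) with the genome size set to human, which can shift the q values. The deposited lists give a score, the fold enrichment as a ratio, and −log10 p and −log10 q per peak, and the control library of MACS2 is not stated. The score was not used, and the IgG libraries were not analysed here.

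Genes whose TPM averaged 0.5 or more were tested with limma 3.58.1 (lmFit, eBayes with a mean-variance trend, log2(TPM + 0.1), no covariates) in R 4.3.3 and adjusted by Benjamini-Hochberg. The procedure was tested on simulated data. Gene spans are from GENCODE vM21 and TSS from curated RefSeq transcripts, both on GRCm38. Promoter sequences are from RefSeq (GRCm38.p6), with those of chromosome 18 left out. Named genes are the members, the pathway and marker lists, the 10 genes nearest in profile, *Prdm16*, and genes nearest to a member's peak. *Dexi* was named after its values were seen. Some listed genes are not reported here by name. The members and lists were chosen with earlier results of these data known. Other settings tried were a pseudocount of 1 or 0.01, a TPM minimum of 1 or none, median ratio and quantile scaling, no trend, a replicate block, each aorta left out, other promoter and distance windows, peak summits, and a q of at most 0.001. Python 3.11.15, pandas 2.3.3, numpy 2.4.6, pysam 0.24.0, Biopython 1.88, and matplotlib 3.10.9 were used.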

Additional observations from a re-analysis of the deposited data

How the results depend on the processing

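The log2 fold changes of *Cd74*, *H2-Aa*, *H2-Ab1*, *H2-Eb1*, and *H2-DMa* stayed positive in all 14 alternative settings, with ranges of 0.70 to 1.27, 0.83 to 1.46, 1.01 to 1.48, 0.94 to 1.304, and 0.094 to 0.80. That of *H2-DMb1* ran from −0.17 to 0.29 with each aorta left out in turn. The count of called members was 0 with pseudocounts of 1 or 0.01, without a TPM filter, and without a trend, and 0 to 2 with 1 aorta left out, where it was 2 (*H2-Aa* and *H2-Ab1*) without *Prdm16*SMKO aorta 2 and 0 without any other aorta. Over all genes, 110 were called without a TPM filter, 411 after median ratio scaling, 392 after quantile normalization, 48 without a trend, and 91 to 141 with 1 aorta left out (91, 99, and 93 without control aortas 1, 2, and 3 and 105 without *Prdm16*SMKO aorta 1). Of the other antigen presentation genes 1 was called after quantile normalization. Of the leukocyte markers 1, *Trac*, was called with a pseudocount of 1, after median ratio scaling, after quantile normalization, and without a trend. With a promoter window of 1 kb 1 member had a peak, and within 50 kb of the gene 8 members did, which follows from the windows themselves. For the expression counts the cause was not tested. Depth is unknown for TPM, which limits what can be said of genes under 0.5 TPM.

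Replicate numbers were not treated as pairs, since deviations of same-numbered aortas had correlations of −0.0246, −0.070, and −0.0090, and none of the 3 control aortas correlated best with its own number. With the replicate block 184 genes were called, including 1 member, and no call on the members or lists changed.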

Other observations

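Several of the costimulatory genes that act beside class II on antigen-presenting cells were low. *Cd80*, *Cd86*, and *Cd40* had means under 0.5 TPM, and *Pdcd1lg2* was listed at 0 in all 6 aortas. *Icosl* and *Cd274* (PD-L1) had means of 4.70 and 2.955 TPM over the 6 aortas. Their log2 fold changes were 0.097 and 0.43 (adjusted *P* = 0.89 and 0.53 by limma). Among 3 lymphoid stroma genes, *Ccl19* overlapped between the groups (log2 fold change −0.10, SE 0.32, adjusted *P* = 0.93 by limma) and *Cxcl13* was at or under 0.13 TPM. *Ccl21a* is listed under 2 Ensembl identifiers, near-identical copies between which reads may be split. The identifier with higher levels had 8.78, 3.02, and 3.18 TPM in control and 2.23, 1.65, and 1.88 TPM in *Prdm16*SMKO aortas, without overlap (log2 fold change −1.16, SE 0.39, adjusted *P* = 0.25 by limma), and its order was opposite to that of the class II genes. The other identifier had 2.6, 4.14, and 0 TPM in control and 0 TPM in every *Prdm16*SMKO aorta, which overlapped (log2 fold change −3.39, SE 1.41, adjusted *P* = 0.36 by limma).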
